A study of Mus musculus with 2 samples.

Results

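Cholesterol synthesis and transport genes were followed across the cell classes of mouse brains with and without a melanoma metastasis. The set held 29 of the 55401 genes in the files and was chosen by gene name. It comprised 7 genes of the mevalonate steps, 11 of the squalene and sterol steps, 5 regulators of the SREBP pathway, and 6 genes of transport, storage and turnover. Levels were read in barcodes with at least 1000 UMIs (unique molecular identifiers, each counting 1 captured transcript), at least 500 genes and at most 20% mitochondrial UMIs. The mice were C57BL/6J and 10 weeks old. Mice of the metastasis group had received an intracranial injection of cells of the mouse melanoma line B16/F10-BrM, and the other group was naive by its title. No transgene or deletion was named for either group. Each group was 1 library made from 3 pooled brains and enriched with beads against ACSA-2, an astrocyte surface antigen, so the cell classes do not stand in their natural proportions.

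Cholesterol in the brain is made locally, because the blood-brain barrier keeps lipoproteins of the blood out. Acetyl-CoA is carried through mevalonate to isoprenoids and then, through squalene and lanosterol, to cholesterol. When sterols in the endoplasmic reticulum run low, SCAP escorts the transcription factor SREBP2 to the Golgi, where it is cut and freed to switch on the synthesis genes, while INSIG proteins hold the complex back when sterols are plentiful. Oligodendrocytes need cholesterol for myelin, and astrocytes supply it to neurons. Lysosomal cholesterol leaves through NPC2 and NPC1, excess is esterified by SOAT1 or exported by transporters such as ABCG1, and neurons remove it as a hydroxysterol made by CYP46A1.

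The metastasis library held 89193669 UMIs and the naive library 69445557. After filtering and doublet removal 13100 and 13140 cells remained, whose median depth was 2823 and 2765 UMIs. The labels give 10000 cells loaded per library, so the kept barcodes, called cells here, exceed the number loaded. Among the kept barcodes, 48 sequences occurred in both libraries. Cells fell into 25 clusters, formed without the 29 genes or 37 other lipid genes, and clusters were named from marker lists. A comparison was made in 15 units with at least 50 cells in both libraries, which were 12 named classes and the 3 unnamed clusters 3, 5 and 21. Astrocyte-like cells were only 2.53% and 7.72% of cells in spite of the enrichment. Melanoma-like cells numbered 697 in metastasis and 19 in naive, so most lay in the library now titled metastasis. The submitters had exchanged the titles in an update of the record. The 19 in the library titled naive had a median depth of 30038 UMIs, against 29814 for those in metastasis. How these 19 came to be in the naive library was not tested. The spread between animals is unknown with 1 library per group, so no test was made, and "higher" and "lower" compare these libraries only. Levels are CPM (the gene's share of all UMIs of the class, on the usual counts-per-million scale), ratios are metastasis over naive, and the ranges in parentheses are 95% intervals that cover counting error only. A gene counted as past 2-fold, a rule of size, when it had at least 20 UMIs over both libraries. The share of all genes past 2-fold in the same class and direction is given as the background.

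Promoter windows of 300 bases, from 250 before the start to 50 after it, were found in the RefSeq table (build GRCm38.p6) for 23 of the 29 genes. Motifs were searched for on both strands by exact match, and a gene with several starts counted when any of its windows held the motif. CCAAT, the box bound by NF-Y, lay in 21 of the 23 genes against 41.1% of all 27025 genes in the table. Counted per window, it lay in 37.4% of all 32851 windows. GGGCGG, the Sp1 box, lay in 22 of 23 against 38.2%. The sterol regulatory element in the form TCACNCCAC lay in 1 gene, Hmgcs1, against 1.44% of all genes, and the DR4 repeat bound by LXR in 0 of 23 against 0.0148%. NF-Y and Sp1 are known partners of SREBP at sterol-responsive promoters, but a match is a description of the sequence and no match says nothing of a factor. The 250 bases before the start are shown for 5 of the 12 synthesis genes that were past 2-fold higher in mural-like cells in metastasis. Each is written 5′ to 3′ on its own strand with CCAAT (or ATTGG, its reverse) and, in Hmgcs1, the sterol regulatory element TCACCCCAC in capitals.
Hmgcs1, chr13:119690101-119690350, strand +: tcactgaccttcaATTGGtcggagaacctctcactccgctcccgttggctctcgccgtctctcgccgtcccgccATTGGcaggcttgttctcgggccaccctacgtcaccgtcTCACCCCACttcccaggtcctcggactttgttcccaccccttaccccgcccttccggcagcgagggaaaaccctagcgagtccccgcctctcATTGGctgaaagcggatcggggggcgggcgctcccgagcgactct
Mvk, chr5:114444019-114444268, strand +: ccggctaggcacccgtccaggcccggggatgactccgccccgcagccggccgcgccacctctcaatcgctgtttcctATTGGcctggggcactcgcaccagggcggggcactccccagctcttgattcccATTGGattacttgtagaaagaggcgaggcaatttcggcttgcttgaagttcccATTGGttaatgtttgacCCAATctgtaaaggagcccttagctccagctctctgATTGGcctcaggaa
Mvd, chr8:122443423-122443672, strand -: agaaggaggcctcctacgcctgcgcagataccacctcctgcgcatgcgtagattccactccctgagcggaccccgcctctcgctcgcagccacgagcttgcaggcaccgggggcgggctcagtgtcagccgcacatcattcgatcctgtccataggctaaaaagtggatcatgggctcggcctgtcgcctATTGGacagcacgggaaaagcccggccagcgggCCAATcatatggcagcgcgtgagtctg
Nsdhl, chrX:72918271-72918520, strand +: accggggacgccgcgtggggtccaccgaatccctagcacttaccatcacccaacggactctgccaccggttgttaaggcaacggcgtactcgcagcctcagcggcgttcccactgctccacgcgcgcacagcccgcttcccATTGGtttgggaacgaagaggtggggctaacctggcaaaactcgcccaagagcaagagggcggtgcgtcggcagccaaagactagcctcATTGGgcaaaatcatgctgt
Ebp, chrX:8193513-8193762, strand -: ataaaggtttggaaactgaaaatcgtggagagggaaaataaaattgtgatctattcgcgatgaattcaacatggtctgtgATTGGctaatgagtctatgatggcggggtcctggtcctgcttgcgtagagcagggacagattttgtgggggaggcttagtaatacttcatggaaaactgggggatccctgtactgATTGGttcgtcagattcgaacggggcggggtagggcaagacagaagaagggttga
In these stretches the CCAAT box occurred 3 times before Hmgcs1, 5 times before Mvk and 2 times each before Mvd, Nsdhl and Ebp. Among synthesis genes past 2-fold higher in mural-like cells but not shown, the count was 0 for Acat2, 1 for Cyp51, 2 for Idi1 and 3 for Hsd17b7. Pmvk and Dhcr7 had several starts, with counts of 1 and 0 for Pmvk and of 0, 0 and 2 for Dhcr7. Fdps had no window. The 5 shown are thus not a measure of the whole group.

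UMIs of synthesis genes were found in every class, at summed levels that differed several-fold. Barcodes with 10 to 100 UMIs, which hold mostly free RNA, had sums of 1226 (metastasis) and 780.3 CPM (naive), on 310 and 207 UMIs. Barcodes with 100 to 300 UMIs had 1043 and 723 CPM. Levels in classes whose sum lay below that of the 10 to 100 band are given as measured and not read as expression. The summed level of the synthesis genes was highest in unnamed cluster 3, at 4041 CPM (3977 to 4106) in metastasis and 3529 CPM (3453 to 3606) in naive. Astrocyte-like cells followed, at 2428 CPM (2305 to 2557) and 2246 CPM (2181 to 2313). Oligodendrocyte-like cells stood at 1809 and 1557 CPM, olfactory ensheathing-like cells at 1592 and 1354 CPM and neuroblast-like cells at 1370.5 and 995 CPM, in metastasis and naive. At the low end were microglia-like cells with 505 and 383 CPM, macrophage/monocyte-like cells with 441 and 486 CPM, choroid plexus epithelium-like cells with 539 and 514 CPM and ependymal-like cells with 651 and 535 CPM. In naive the intervals of choroid plexus epithelium-like, macrophage/monocyte-like and fibroblast-like cells overlapped. The order of the glial classes at the top was the same in both libraries. In metastasis, mural-like cells stood at 1802 CPM, beside oligodendrocyte-like cells, whereas in naive they stood at 667 CPM, near the low group.

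**Figure D1:**
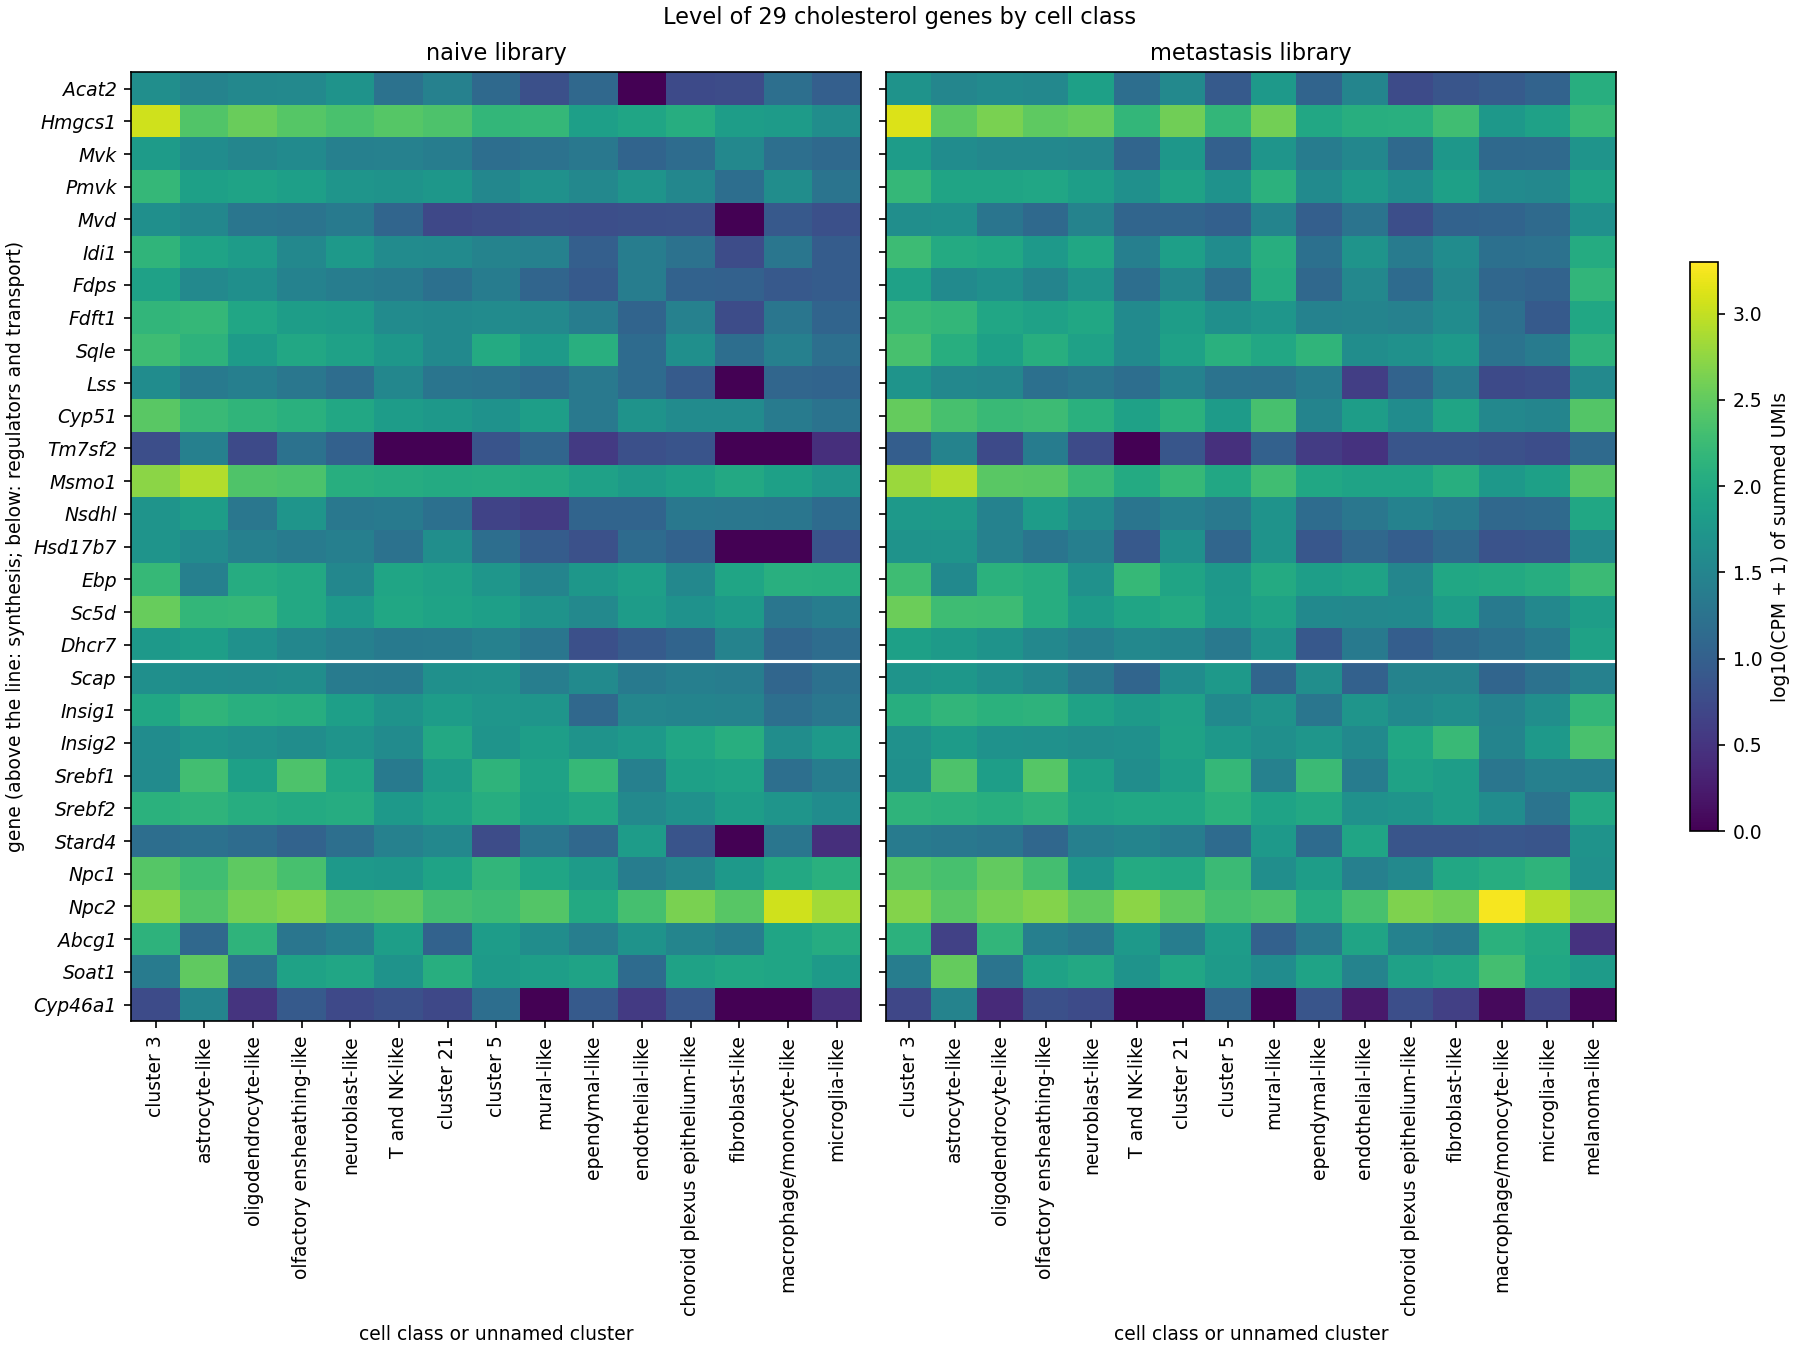
Heat map of the 29 genes (rows) in each class or unnamed cluster (columns) of the naive and the metastasis library, coloured by log10(CPM + 1) of summed UMIs, with classes ordered by their summed synthesis genes in naive. Hmgcs1 is brightest in cluster 3, Msmo1 in astrocyte-like cells and Npc2 in macrophage/monocyte-like cells in both libraries.

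**Figure D2:**
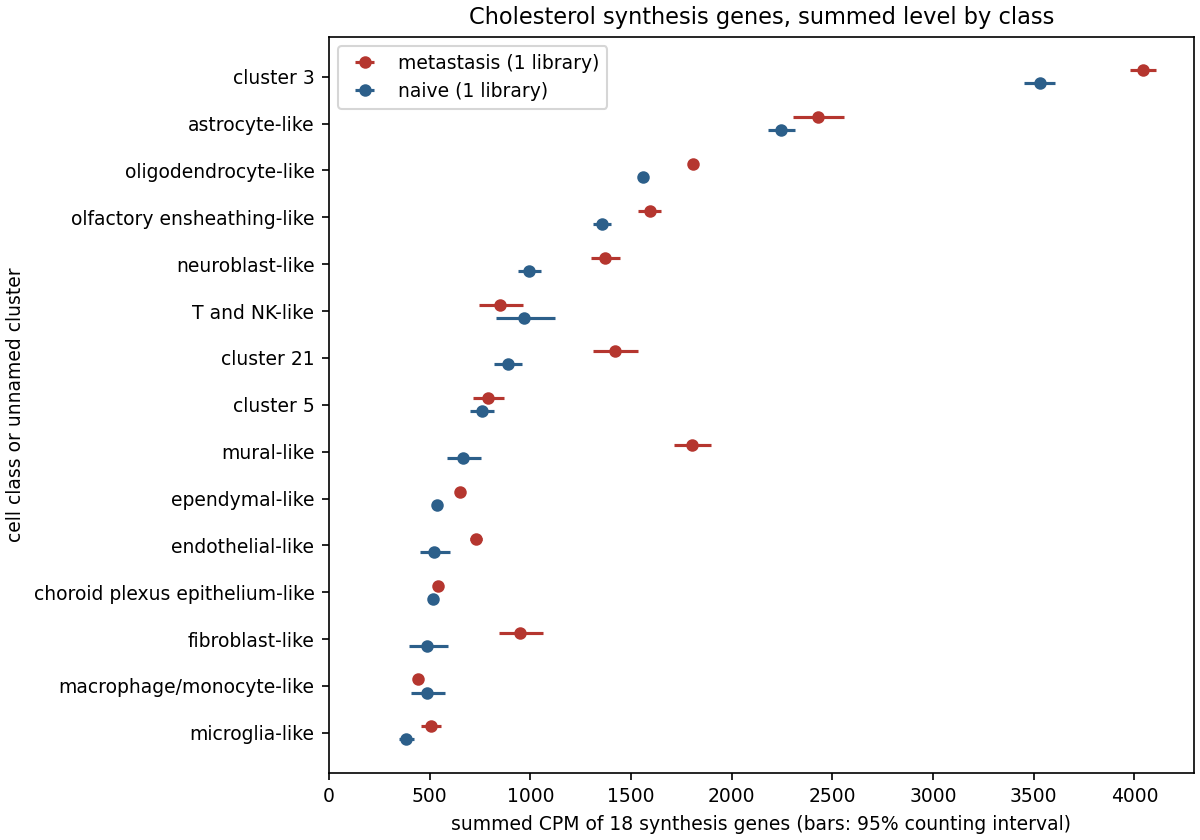
Summed CPM of the 18 synthesis genes (horizontal axis) by class or unnamed cluster (vertical axis), 1 point per library with its 95% counting interval. Cluster 3 stands apart at 4041 and 3529 CPM, and the mural-like points of the libraries lie apart at 1802 and 667 CPM.

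Among the mevalonate genes, Hmgcs1, which encodes the cytosolic HMG-CoA synthase, had its highest level in cluster 3, at 1329.9 CPM (metastasis) and 1149.5 CPM (naive). The next class, oligodendrocyte-like cells, had 432 and 354 CPM, and the lowest levels were 57.3 CPM in macrophage/monocyte-like cells in metastasis and 40.1 CPM in microglia-like cells in naive. Cluster 3 thus exceeded the next class 3.08-fold (2.96 to 3.20) in metastasis and 3.25-fold (3.10 to 3.40) in naive. Idi1, the isopentenyl diphosphate isomerase, was also highest in cluster 3, at 184 and 144 CPM, and Pmvk, the phosphomevalonate kinase, at 157 and 155 CPM. Mvk (mevalonate kinase, 65.6 and 64.1 CPM in cluster 3) had the same highest class, but in metastasis fibroblast-like cells with 55.4 CPM lay within counting error of it. Mvd, the mevalonate diphosphate decarboxylase, was at 42.3 and 43.0 CPM in cluster 3 and 43.8 and 33.2 CPM in astrocyte-like cells, which did not differ beyond counting error in either library. Fdps, the farnesyl diphosphate synthase, was highest in cluster 3 in naive, at 76.5 CPM, but in mural-like cells in metastasis, at 105 CPM. Acat2, the cytosolic acetyl-CoA acetyltransferase that opens the pathway, was highest in neuroblast-like cells, at 74.3 and 49.2 CPM, within counting error of the next class. Reads of Acat2 may be shared with its close mouse paralog Acat3 and with the overlapping gene Tcp1, and Fdps has processed pseudogenes, so both counts are uncertain.

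In the squalene and sterol steps, astrocyte-like cells and cluster 3 held the highest level of every gene except Nsdhl in metastasis. Msmo1, a sterol C4-methyl oxidase, set astrocyte-like cells apart from all other classes compared. It had 856 CPM (metastasis) and 838 CPM (naive) there and 628 and 533 CPM in cluster 3, a difference of 1.36-fold (1.24 to 1.501) in metastasis and 1.57-fold (1.46 to 1.69) in naive. Its lowest levels were 56.1 CPM in macrophage/monocyte-like cells in metastasis and 53.5 CPM in microglia-like cells in naive. Tm7sf2, a sterol C14-reductase, was highest in astrocyte-like cells at 28.6 and 26.3 CPM. Sqle, the squalene epoxidase, was highest in cluster 3 at 217 and 188 CPM. It was also high in ependymal-like cells, at 141 and 120.2 CPM, where the summed synthesis genes were low. Cyp51, the lanosterol demethylase, had 332 and 283 CPM in cluster 3 and 216 and 170.4 CPM in astrocyte-like cells. Sc5d, the lathosterol oxidase, had 359 and 336 CPM in cluster 3 and no more than 185 CPM in the next class. Fdft1, the squalene synthase, stood at 167 and 148 CPM in cluster 3 and 149.98 and 156 CPM in astrocyte-like cells, which overlapped within counting error. Lss, the lanosterol synthase, was highest in cluster 3 at 50.3 and 39.6 CPM, without a clear gap to the next class. Ebp, the sterol isomerase, was spread more evenly, from 32.1 to 189 CPM in metastasis and from 26.8 to 159.98 CPM in naive. Nsdhl, the sterol C4-decarboxylase, was at 66.6 and 52.2 CPM in olfactory ensheathing-like and 62.4 and 66.9 CPM in astrocyte-like cells. Hsd17b7, the keto-reductase of the same complex, was at 50.6 and 38.2 CPM in astrocyte-like cells and 49.0 and 50.7 CPM in cluster 3. Dhcr7, which reduces 7-dehydrocholesterol, was at 62.4 and 70.4 CPM in astrocyte-like cells and 75.2 and 59.3 CPM in cluster 3. Of the 18 synthesis genes, 11 in metastasis and 12 in naive had their highest level in cluster 3, and for 5 and 8 of these the interval of the ratio to the next class lay above 1.

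The lowest levels lay mostly in the myeloid classes in metastasis. Macrophage/monocyte-like cells were lowest for Hmgcs1, Idi1 (15.4 CPM), Sqle (17.2 CPM), Msmo1, Nsdhl (11.98 CPM), Hsd17b7 (6.04 CPM) and Sc5d (21.8 CPM), and microglia-like cells for Pmvk (34.2 CPM), Fdps (10.1 CPM) and Fdft1 (7.60 CPM). In naive, where macrophage/monocyte-like cells were few, fibroblast-like cells were lowest for Pmvk (14.4 CPM), Idi1 (4.82 CPM) and Fdft1 (4.82 CPM) and had no UMI of Mvd, Lss or Tm7sf2. Endothelial-like cells in naive had no UMI of Acat2 and were lowest for Mvk (10.6 CPM) and Sqle (13.3 CPM). Dhcr7 was lowest in ependymal-like cells in both libraries, at 7.09 and 5.34 CPM. Fibroblast-like and endothelial-like cells were few in naive, and the order among their low levels is loose. Each class named here had a synthesis sum below the free RNA sum of its library, 1226 CPM in metastasis and 780.3 CPM in naive. These low levels are thus given as measured and not read as expression.

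Within the oligodendrocyte lineage the synthesis genes separated the clusters. Cluster 3 (736 and 400 cells) was left unnamed because Tubb3, of the neuroblast list, was among its 10 leading genes, which were headed by Klk6, Hopx, S100b and Enpp6, but 10 of 12 oligodendrocyte markers were at 2-fold or more in it. It was compared, within each library, with the oligodendrocyte-like clusters 10, 12 and 13, all headed by Opalin, a gene of mature myelinating cells. The comparison was chosen after the levels had been seen. Summed synthesis genes in the Opalin clusters ran from 1478 to 1604 CPM in metastasis and from 1392 to 1519 CPM in naive. Cluster 11, headed by Enpp6 and Anln, lay between them and cluster 3, at 2496 and 2197 CPM.

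All 18 synthesis genes were higher in cluster 3 than in the Opalin clusters in both libraries, 13 of them past 2-fold in metastasis (background 7.22% of all genes higher, 9.25% lower) and 11 in naive (background 8.33% higher, 9.09% lower). None was past 2-fold lower. The median log2 ratio was 1.10 in metastasis and 1.08 in naive, beside -0.02 and 0.01 over all genes. Hmgcs1 showed the widest gap, 1329.9 against 353 CPM in metastasis, 3.77-fold (3.60 to 3.93), and 1149.5 against 307 CPM in naive, 3.74-fold (3.56 to 3.93). Sqle came next with 3.60-fold (3.24 to 4.02) and 3.59-fold (3.18 to 4.06). Acat2 was among the smallest differences, 1.39-fold (1.15 to 1.67) and 1.29-fold (1.02 to 1.61). Cluster 11 stood above the Opalin clusters for all 18 genes too, but within 2-fold for 18 in metastasis and 17 in naive (backgrounds 3.47% higher and 4.61% lower in metastasis, 3.93% and 4.82% in naive).

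The regulators and transport genes did not follow the synthesis genes in cluster 3. Of these 11 genes, 1 was past 2-fold higher in each library, Cyp46a1, at 4.01 against 1.14 CPM in metastasis and 4.73 against 1.94 CPM in naive, on few UMIs. Srebf1, which encodes the SREBP form tied to fatty acid synthesis, was lower, at 0.598-fold (0.501 to 0.709) and 0.506-fold (0.403 to 0.630). Srebf2, which encodes SREBP2, differed by 1.20-fold (1.08 to 1.33) and 1.19-fold (1.05 to 1.35), and Insig1 by 0.873-fold (0.781 to 0.974) and 0.740-fold (0.638 to 0.855). Among the 37 other lipid genes, the median log2 ratio over the 33 with enough UMIs was 0.04 in metastasis and 0.06 in naive. Me1, the cytosolic malic enzyme, was 4.58-fold (3.78 to 5.56) and 5.68-fold (4.60 to 7.02) as high in cluster 3, Acss2, an acetyl-CoA synthetase, 2.02-fold (1.74 to 2.33) and 2.38-fold (2.04 to 2.78), and Cyp27a1, the sterol 27-hydroxylase, 5.64-fold (4.78 to 6.66) and 6.52-fold (5.51 to 7.74). Stard5, a sterol carrier of the START family, was at 19.3 against 2.07 CPM in metastasis and 16.3 against 1.71 CPM in naive. In the other direction, Fads1, a fatty acid desaturase, was at 6.42 against 41.9 CPM and 7.31 against 41.9 CPM. Cells of cluster 3 were deeper, with medians of 4799 and 5382 UMIs against 2480 to 2532 and 2809 to 2992 in the Opalin clusters. With every cell thinned to 1000 UMIs (no kept cell had fewer), a Hmgcs1 UMI was found in 62.1% (58.5 to 65.6) and 59.2% (54.3 to 64.1) of cluster 3 cells, in 28.9% (27.6 to 30.3) and 25.1% (23.9 to 26.3) of oligodendrocyte-like cells and in 5.38% (3.51 to 7.83) and 4.52% (3.03 to 6.47) of microglia-like cells. Without thinning these shares were 93.1% and 91.8%, 54.2% and 52.2%, and 7.74% and 6.95%.

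**Figure D3:**
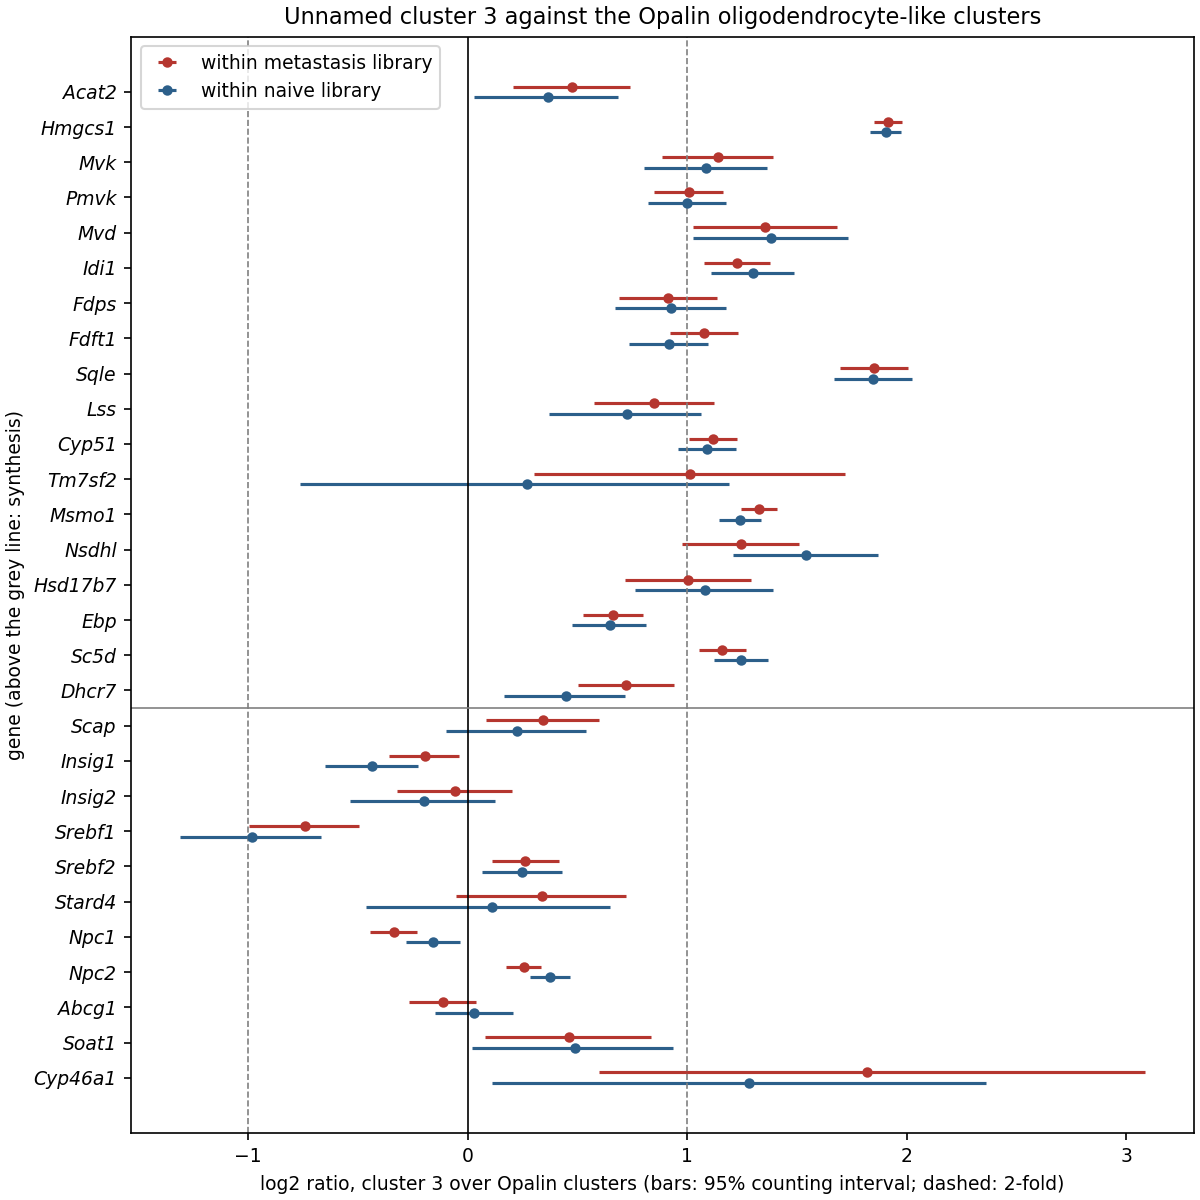
Log2 ratio of each gene's CPM in cluster 3 over the Opalin clusters 10, 12 and 13 (horizontal axis), within each library, with 95% counting intervals and dashed lines at 2-fold. The 18 synthesis genes all lie to the right of 0, whereas Srebf1, Insig1, Insig2 and Npc1 lie to the left in both libraries.

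The regulators had patterns of their own. Srebf1 was highest in olfactory ensheathing-like cells, at 272 CPM (metastasis) and 237 CPM (naive), followed by astrocyte-like cells at 236 and 198 CPM and ependymal-like cells at 175 and 162 CPM. The first and next class of Srebf1 did not differ beyond counting error in metastasis. Its lowest level was in macrophage/monocyte-like cells, at 18.9 and 14.8 CPM. Srebf2 was spread more evenly, with 139.7 and 129 CPM in cluster 3, 131 and 137 CPM in astrocyte-like cells and 139 and 104 CPM in olfactory ensheathing-like cells. Insig1, itself a target of SREBP2, was highest in astrocyte-like cells at 147 and 143 CPM (within counting error of olfactory ensheathing-like cells in metastasis) and lowest in ependymal-like cells at 19.0 and 11.9 CPM. Insig2, its relative, was highest in fibroblast-like cells at 173 and 116 CPM, with choroid plexus epithelium-like cells at 91.5 and 87.6 CPM. Scap ran from 9.57 to 60.0 CPM in metastasis and from 11.1 to 45.3 CPM in naive.

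The transport and storage genes had no single leading class. Npc2, the soluble lysosomal sterol carrier, was highest in macrophage/monocyte-like cells, at 1802 CPM (metastasis) and 1154 CPM (naive), then in microglia-like cells at 889 and 702 CPM, and lowest in ependymal-like cells at 109 and 99.5 CPM. At 1000 UMIs per cell it was found in 79.7% (77.7 to 81.6) and 61.3% (50.6 to 71.2) of macrophage/monocyte-like cells and in 11.3% (9.95 to 12.8) and 10.9% (9.73 to 12.1) of ependymal-like cells, whose median depths were 4388 and 2359 UMIs against 3189 and 3356. Unthinned, the shares were 96.4% and 83.9% against 32.0% and 32.3%. Npc1, its membrane partner, was highest in oligodendrocyte-like cells, at 325 CPM (metastasis) and 304 CPM (naive), with 252 and 268 CPM in cluster 3, and lowest in endothelial-like cells at 26.3 and 23.9 CPM. Both libraries gave the same highest class for each of these genes.

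Abcg1, a sterol exporter induced by LXR, was highest in oligodendrocyte-like cells at 149.7 CPM (metastasis) and 139.7 CPM (naive) and in cluster 3 at 130.3 and 135 CPM, not apart beyond counting error in naive, and macrophage/monocyte-like cells had 125 and 85.3 CPM. Astrocyte-like cells had only 3.37 and 11.9 CPM. Soat1, which esterifies cholesterol for storage in droplets, had the reverse order of these glial classes. It was highest in astrocyte-like cells at 329 CPM (metastasis) and 308 CPM (naive), and among the lowest in oligodendrocyte-like cells at 17.7 and 16.6 CPM and cluster 3 at 24.4 and 22.4 CPM. A Soat1 UMI was found at 1000 UMIs per cell in 28.6% (23.8 to 33.8) and 24.6% (21.9 to 27.3) of astrocyte-like cells and in 1.85% (1.48 to 2.29) and 1.60% (1.27 to 1.98) of oligodendrocyte-like cells, at unthinned median depths of 1639 and 1794 against 2616 and 2906 UMIs. Unthinned shares were 42.5% and 42.4% against 4.81% and 4.77%. Stard4, a carrier that moves sterol between membranes and is an SREBP2 target, was highest in endothelial-like cells at 86.5 CPM (metastasis) and 66.5 CPM (naive). Cyp46a1 was highest in astrocyte-like cells at 28.6 and 29.7 CPM. Neurons, in which CYP46A1 is known to be abundant, formed no class here, so its level in them was not measured.

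**Figure D4:**
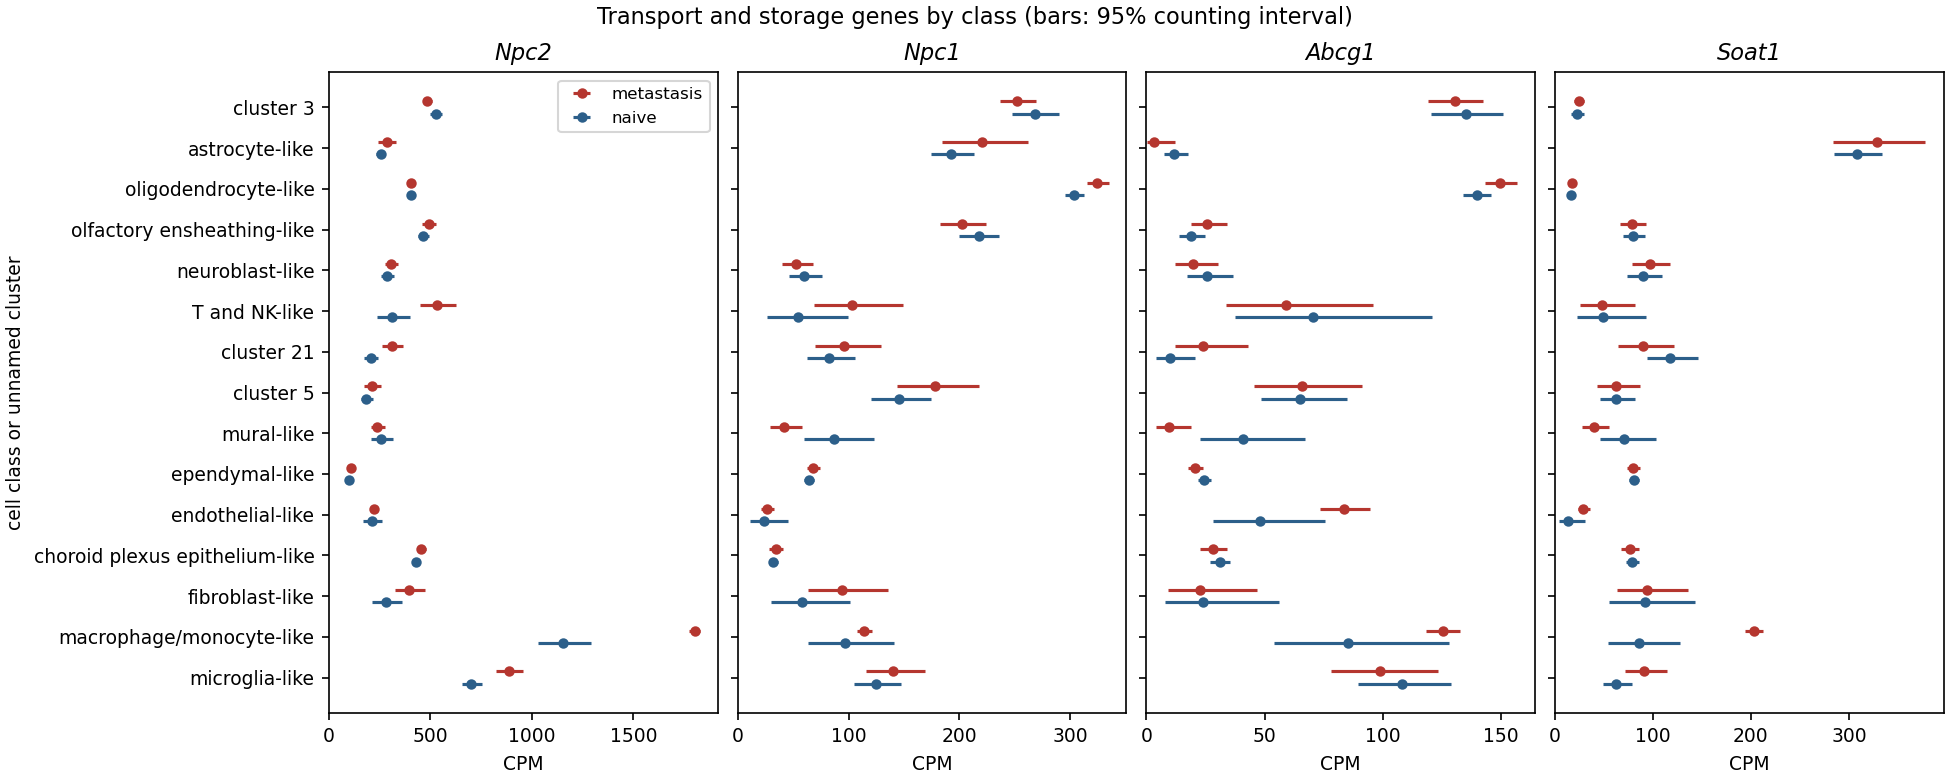
CPM of Npc2, Npc1, Abcg1 and Soat1 (horizontal axes, 1 panel each) by class or unnamed cluster, with 1 point per library and its 95% counting interval. Npc2 is highest in macrophage/monocyte-like cells, Npc1 and Abcg1 in oligodendrocyte-like cells, and Soat1 in astrocyte-like cells, with a further Soat1 peak of 203 CPM in macrophage/monocyte-like cells in metastasis.

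Melanoma-like cells, with no class to compare in naive, had a summed synthesis level of 1981 CPM in metastasis, between astrocyte-like and oligodendrocyte-like cells. Of the synthesis genes, 4 were higher there than in any class compared, at 147 CPM for Fdps, 115 CPM for Acat2, 90.7 CPM for Nsdhl and 79.5 CPM for Dhcr7. Insig2 was at 222 CPM and Insig1 at 152 CPM, again above every class compared. Abcg1, at 2.04 CPM, and Cyp46a1, at 0.0950 CPM, were near absent.

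Between the libraries, the summed synthesis genes were higher in metastasis in 13 of 15 classes and clusters, in 11 of them with an interval above 1, but by little in most. In 7 of the 15, which were oligodendrocyte-like, ependymal-like, olfactory ensheathing-like, choroid plexus epithelium-like and T and NK-like cells and clusters 3 and 5, no measured gene of the set was past 2-fold. Only 13 of the 29 genes had enough UMIs in T and NK-like cells and 21 in cluster 5. The sum differed by 1.08-fold (1.02 to 1.15) in astrocyte-like, 1.16-fold (1.14 to 1.18) in oligodendrocyte-like, 1.22-fold (1.17 to 1.26) in ependymal-like and 1.18-fold (1.12 to 1.24) in olfactory ensheathing-like cells, and by 1.15-fold (1.11 to 1.18) in cluster 3. Choroid plexus epithelium-like cells gave 1.05-fold (0.991 to 1.11), cluster 5 1.04-fold (0.919 to 1.18), T and NK-like cells 0.877-fold (0.718 to 1.07) and macrophage/monocyte-like cells 0.908-fold (0.763 to 1.09), all with intervals that reach 1. In T and NK-like cells 5 cells held 32.2% of the synthesis UMIs in metastasis and 61.8% in naive, and in macrophage/monocyte-like cells 4.08% and 26.0%. The mean over cells turned the direction in both classes, to 680.1 against 610.04 CPM and 459 against 445 CPM. The direction also turned, to lower in metastasis, in choroid plexus epithelium-like cells, at 538 against 545 CPM. The free RNA sums given above differed in the same direction. The part of this free RNA in the small shifts was not tested gene by gene. With free RNA subtracted, the log2 ratio of the sum turned from 0.11 to -0.10 in astrocyte-like cells.

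In astrocyte-like cells (332 and 1014 cells), 0 of 29 genes were past 2-fold higher (background 2.5%) and 1 lower (3.35%), Abcg1, on 2 UMIs against 24 and with an interval that includes 1. The 3 highest ratios among genes with at least 100 UMIs were Scap at 1.40-fold (0.906 to 2.13), Hsd17b7 at 1.33-fold (0.839 to 2.04) and Cyp51 at 1.27-fold (1.02 to 1.55), and the 3 lowest were Sqle at 0.853-fold (0.644 to 1.12), Dhcr7 at 0.886-fold (0.600 to 1.28) and Nsdhl at 0.932-fold (0.630 to 1.35). Only the interval of Cyp51 excluded 1 among these 6. Melanoma markers, read in the same cells, summed to 735 CPM in metastasis and 60.9 in naive. Of these 11 markers, 8 to 11 were detected per unit in metastasis and 3 to 10 in naive. Their sum was higher in metastasis in all 15 units, from 325 to 1353 CPM, against 23.9 to 181 CPM in naive, and its part in the ratios was not tested.

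Oligodendrocyte-like cells (4533 and 5072) had 0 of 29 genes past 2-fold (backgrounds 4.65% higher and 1.26% lower). The highest ratios were Nsdhl at 1.42-fold (1.22 to 1.66), from 27.8 and 19.5 CPM, Idi1 at 1.40-fold (1.29 to 1.53), from 92.0 and 65.6 CPM, and Stard4 at 1.35-fold (1.11 to 1.63). Among genes with at least 100 UMIs the lowest were Srebf1 at 0.944-fold (0.864 to 1.03), Mvd at 0.977-fold (0.819 to 1.16) and Fdft1 at 0.981-fold (0.906 to 1.06). Different clusters held most of this class in the 2 libraries, cluster 12 with 2748 of the cells in metastasis and cluster 10 with 3376 in naive. Within single clusters the sum differed by 1.06-fold in cluster 10, 1.14-fold in cluster 11, 1.06-fold in cluster 12 and 1.11-fold in cluster 13. With cluster 3 counted in the class, the log2 ratio of the sum was 0.35 instead of 0.22 (cluster 3 was 5.62% of cells in metastasis and 3.04% in naive).

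Ependymal-like cells (2008 and 2752) also had 0 of 29 genes past 2-fold (backgrounds 3.6% higher and 1.26% lower). Idi1 was at 15.6 and 9.04 CPM, 1.73-fold (1.32 to 2.26), Mvd at 1.72-fold (1.21 to 2.47) and Insig1 at 1.60-fold (1.26 to 2.02) (Fdps had the same ratio), and the lowest were Abcg1 at 0.838-fold (0.687 to 1.02), Cyp46a1 at 0.850-fold (0.589 to 1.22) and Acat2 at 0.874-fold (0.658 to 1.15). With free RNA subtracted, the log2 ratios in ependymal-like cells turned to -0.10 for Idi1 and -0.90 for Insig1, and that of the sum went from 0.28 to 0.0623. Cluster 4, led by interferon-induced genes such as Ifit3 and Gbp2, gave 820 of these cells in metastasis and 15 in naive, and its synthesis sum in metastasis was 743 CPM. Clusters 14 and 15 had 590.2 and 565 CPM in metastasis and 561 and 509.8 CPM in naive, all below cluster 4. In olfactory ensheathing-like cells (backgrounds 2.67% and 1.2%, higher and lower), choroid plexus epithelium-like cells (3.75% and 0.976%), T and NK-like cells (5.89% and 5.37%), cluster 3 (2.05% and 0.799%) and cluster 5 (3.32% and 2.24%) the count past 2-fold was 0 as well. In neuroblast-like cells 1 of 27 measured genes, Fdps, was past 2-fold (backgrounds 3.66% higher, 3.3% lower), at 50.8 and 23.7 CPM, 2.14-fold (1.33 to 3.54), and the synthesis sum differed by 1.38-fold (1.27 to 1.49).

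Mural-like cells, the pericytes and smooth muscle of vessels, showed the widest difference of the set. Of 25 genes with enough UMIs, 13 were past 2-fold higher in metastasis and 3 lower, beside backgrounds of 20.8% and 16.4% of all genes, which were also high here. All 16 measured synthesis genes lay above a ratio of 1, 13 with intervals above 1, and the sum was 1802 CPM against 667 CPM, 2.70-fold (2.36 to 3.10). Of the 12 synthesis genes past 2-fold, 7 belonged to the mevalonate steps, and the median log2 ratio of the 16 was 1.65, beside 0.07 over all genes. Counts in naive were small, so the size of single ratios is loose. The naive sum of 667 CPM also lay below the free RNA sum of that library, 780.3 CPM. Naive levels in this class are thus given as measured and not read as expression.

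Among the mevalonate genes in mural-like cells, Hmgcs1 was at 399 CPM (metastasis) and 155 CPM (naive), 2.58-fold (1.95 to 3.48), on 334 and 57 UMIs. Idi1 was at 115 and 27.1 CPM, 4.23-fold (2.20 to 9.11), and Pmvk at 132 and 46.1 CPM, 2.85-fold (1.70 to 5.07). Mvk gave 3.16-fold (1.34 to 9.08). Fdps, on 88 and 4 UMIs, gave 9.70-fold (3.66 to 36.4), Acat2, on 48 and 2, 10.6-fold (2.77 to 89.9), and Mvd, on 25 and 2, 5.51-fold (1.37 to 48.0). All 7 mevalonate genes were thus past 2-fold with intervals above 1. In the sterol steps, Cyp51 was at 220.04 and 70.5 CPM, 3.12-fold (2.06 to 4.90), and Ebp at 103 and 29.8 CPM, 3.45-fold (1.83 to 7.16). Hsd17b7, on 41 and 3 UMIs, gave 6.02-fold (1.92 to 30.4), Nsdhl, on 40 and 1, 17.6-fold (2.99 to 714), and Dhcr7, on 41 and 7, 2.58-fold (1.15 to 6.82). With every cell weighted equally the log2 ratio of Dhcr7 turned to -0.35. Msmo1, at 194 and 100.4 CPM, stayed just inside the limit at 1.93-fold (1.34 to 2.84). Fdft1, Sqle and Sc5d were at 1.49-fold, 1.49-fold and 1.59-fold with intervals that include 1.

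Regulators and transport genes of mural-like cells split. Stard4 was higher, at 59.8 and 19.0 CPM, 3.15-fold (1.42 to 8.23). Lower were Srebf1, at 27.5 and 78.7 CPM (2.86-fold lower), Npc1, at 41.9 and 86.8 CPM (2.07-fold lower), and Abcg1, at 9.57 and 40.7 CPM (4.25-fold lower), each with an interval that excludes 1. With at least 500 UMIs per barcode the log2 ratio of Npc1 turned to 0.17. Srebf2, at 81.3 and 73.3 CPM, and Insig1, at 47.8 and 51.5 CPM, differed by 1.11-fold (0.701 to 1.80) and 0.928-fold (0.525 to 1.70). Among the 28 other lipid genes measured, 1 was past 2-fold higher and 7 lower (backgrounds as above), with a median log2 ratio of -0.53. Scd2, a fatty acid desaturase of the SREBP programme, was at 365 against 757 CPM, Acaca, the acetyl-CoA carboxylase, at 23.9 against 57.0 CPM, and Lpin1, a phosphatidate phosphatase, at 5.98 against 43.4 CPM in metastasis and naive. Vldlr, a lipoprotein receptor, and Nr1h2, the LXR beta receptor, were also lower, at 16.7 against 65.1 CPM and 17.9 against 48.8 CPM. Ch25h, the cholesterol 25-hydroxylase, was the higher one, on 22 UMIs against 1. Of the 13 fatty acid genes of the SREBP programme, all measured in these cells, 0 were past 2-fold higher and 3 lower, beside 12 of 16 cholesterol synthesis genes higher.

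The mural-like cells of the libraries differed in more than these genes. Cluster 22, led by the pericyte genes Rgs5 and Kcnj8, gave 133 of the cells in metastasis and 72 in naive, and cluster 24, led by the smooth muscle genes Myh11 and Tagln, 15 and 51. Median depth in cluster 22 was 4443 UMIs against 1382. In cluster 22 alone the synthesis sum was 1858 CPM against 882 CPM, 2.11-fold. There 9 of 16 synthesis genes were past 2-fold higher, while Mvk, Cyp51 and Dhcr7 lay within 2-fold. The share of all genes past 2-fold was not computed for cluster 22 alone. Of the 9, Mvd and Hsd17b7 had intervals that include 1. Acat2 and Nsdhl had no naive UMI in cluster 22 and passed by the floor of 3 UMIs. Here Hmgcs1 was at 413 against 181 CPM and Npc1 at 41.2 against 181 CPM. Choroid plexus markers in the class summed to 9888 CPM in metastasis and 63192 CPM in naive, oligodendrocyte markers to 4364 and 10687, and melanoma markers to 325 and 48.8. The microglia list summed to 3685 and 1045 CPM, but only 4 of its 12 markers were higher in metastasis, and its top gene alone held 3504 and 779 CPM. All 10 choroid plexus and all 12 oligodendrocyte markers were lower in metastasis, and 12 of 12 mural markers were detected in both libraries. The part of these cells, of depth and of the unequal cluster make-up in the class ratios was not tested beyond the values given here. With choroid plexus and oligodendrocyte markers left out of the total, the log2 ratio of the sum was 1.34 instead of 1.43. The 5 cells with most synthesis UMIs held 16.6% of them in metastasis and 23.6% in naive, and the median cell was at 1084 against 469 CPM. At 1000 UMIs per cell, a Hmgcs1 UMI was found in 23.6% (17.1 to 31.3) of mural-like cells of the metastasis library and 10.6% (5.75 to 17.4) of the naive library, and unthinned in 53.4% and 21.95%, where microglia-like cells thinned gave 5.38% (3.51 to 7.83) and 4.52% (3.03 to 6.47).

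**Figure D5:**
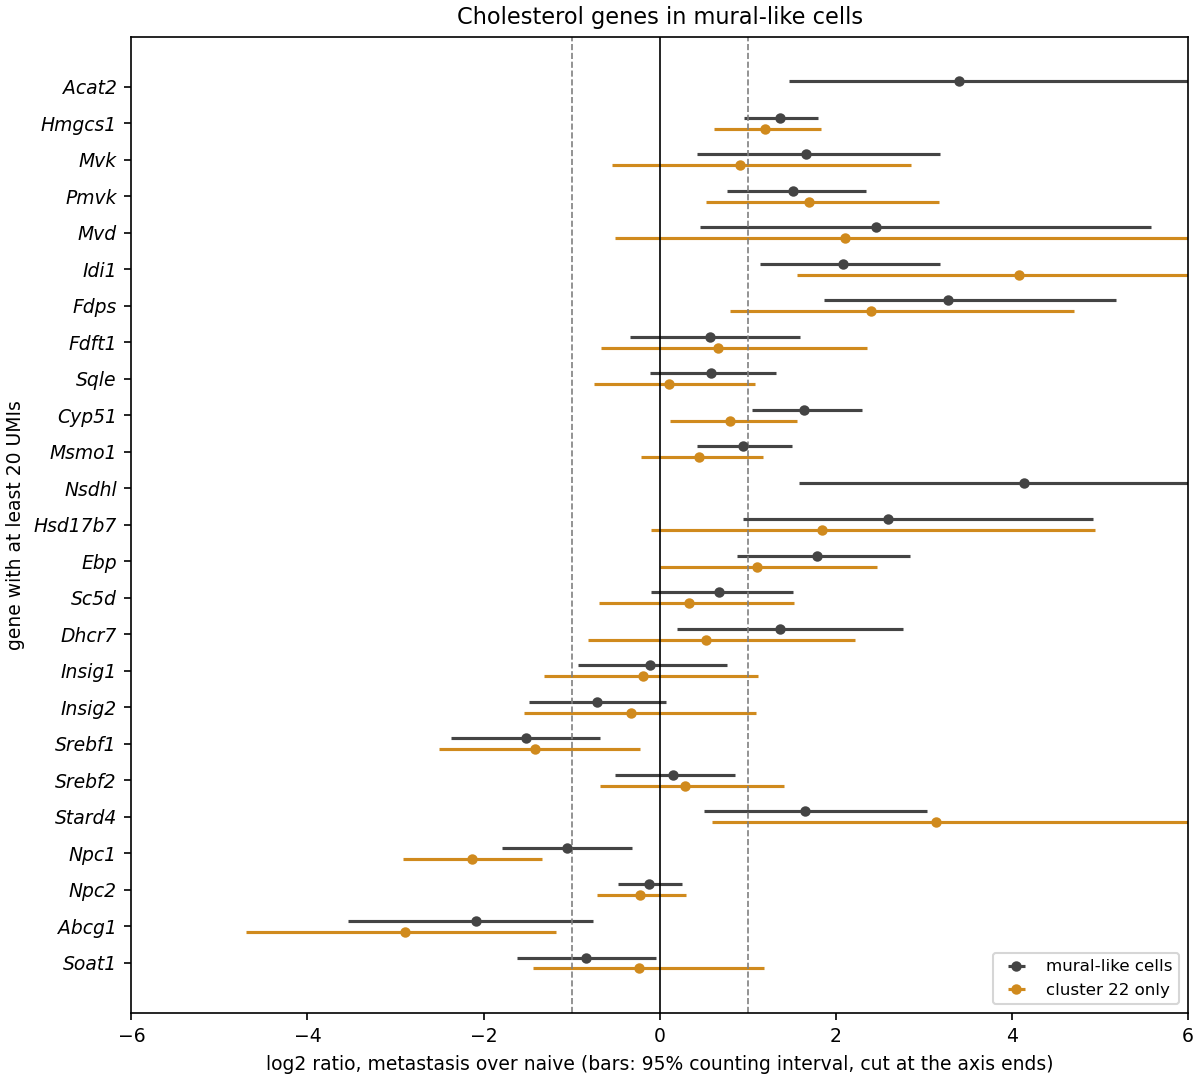
Log2 ratio, metastasis over naive, of the 25 genes with at least 20 UMIs in mural-like cells (grey) and of the same genes in cluster 22 alone (orange), with 95% counting intervals cut at the ends of the axis and dashed lines at 2-fold. Synthesis genes from Acat2 to Dhcr7 lie to the right of 0, and Srebf1, Npc1 and Abcg1 to the left. Acat2 and Nsdhl have no orange point because their naive sum in cluster 22 was 0.

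Cluster 21 and fibroblast-like cells showed smaller sets of higher genes. In cluster 21 (158 and 233 cells, led by Ccn3, Slc47a1 and Rspo3, and left unnamed because no marker list reached the limits), 4 of 25 genes were past 2-fold higher and 0 lower (backgrounds 3.84% and 2.8%), which were Mvk, Fdps, Sqle and Cyp51. Cyp51 was at 129 and 56.7 CPM, 2.27-fold (1.496 to 3.49), Sqle at 76.5 and 35.4 CPM, 2.16-fold (1.26 to 3.76), Mvk at 2.27-fold (1.18 to 4.47), and Fdps at 2.10-fold (0.902 to 5.06), the last with an interval that includes 1. The synthesis sum was 1419.9 against 887 CPM, 1.60-fold (1.43 to 1.79). All 12 oligodendrocyte markers were higher in metastasis in cluster 21, summing to 16379 against 9882 CPM, and choroid plexus markers summed to 8585 against 14935 CPM. Their part in the ratios was not tested. Fibroblast-like cells (104 and 77) had 4 of 14 genes past 2-fold higher and 0 lower (backgrounds 8.12% and 4.15%). Hmgcs1 was at 192 and 67.4 CPM, 2.85-fold (1.57 to 5.53), Pmvk, on 23 and 3 UMIs, at 5.19-fold (1.57 to 27.0), Sqle, on 18 and 3, at 4.06-fold (1.18 to 21.5), and Cyp51 at 2.20-fold (0.966 to 5.62), with an interval that includes 1. In these fibroblast-like cells 5 cells held 43.0% of the synthesis UMIs in metastasis and 37.6% in naive. The synthesis sums of the class, 948 and 486 CPM, lay below the free RNA sums of 1226 and 780.3 CPM (metastasis and naive). Synthesis levels in fibroblast-like cells are thus given as measured and not read as expression. Erythroid markers there summed to 61.9 against 14235 CPM, choroid plexus markers to 6280.1 against 15136 CPM and oligodendrocyte markers to 9352 against 6285 CPM, the last with 12 of 12 higher in metastasis. Their part in the ratios was not tested.

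Endothelial-like cells (209 and 116) had 8 of 26 genes past 2-fold higher and 1 lower, but the backgrounds of 17.6% and 17.1% were wide as well. Median depth was 6572 UMIs against 2461. The synthesis sums of the class, 729 and 521 CPM, lay below the free RNA sums of 1226 and 780.3 CPM (metastasis and naive). Synthesis levels here are thus given as measured and not read as expression. The class's own 12 markers summed to 9278 CPM against 26149 CPM, with 4 higher in metastasis. All 5 erythroid markers (1320.2 against 20739.8 CPM in sum) and all 10 choroid plexus markers (3745 against 11534 CPM) were lower. Their part in the ratios was not tested. Idi1 was at 49.9 and 23.9 CPM, 2.08-fold (1.07 to 4.65), Sqle, on 119 and 5 UMIs, at 3.06-fold (1.27 to 9.59), Mvk, on 97 and 4, at 3.11-fold (1.18 to 11.7), and Fdft1, on 87 and 4, at 2.79-fold (1.05 to 10.5). Acat2 had 91 UMIs in metastasis and 0 in naive, which with the floor of 3 UMIs over the class is at least 3.90-fold higher. The other 3 higher genes, Mvd, Dhcr7 and Soat1, and the lower one, Scap, had intervals that include 1. Sc5d, at 34.2 and 66.5 CPM, was lower within 2-fold, at 0.514-fold (0.329 to 0.832).

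Among the myeloid cells, macrophage/monocyte-like cells numbered 1725 in metastasis and 93 in naive, so the naive values rest on few cells. The make-up of the class also differed: 7 neutrophil markers summed to 929.9 CPM (metastasis) and 9483 CPM (naive), and at resolution 2 an S100a9 and S100a8 cluster held 442 and 81 cells and a Lyz2 and Gpnmb cluster 760 and 3. The part of this make-up in the ratios was not tested. Of 28 genes, 1 was past 2-fold higher and 2 lower (backgrounds 6.65% and 14.1%). Soat1 was the higher one, at 203 CPM (metastasis) and 85.3 CPM (naive), 2.38-fold (1.58 to 3.76), and the intervals of both lower genes, Lss and Stard4, include 1. At 1000 UMIs per cell a Soat1 UMI was found in 17.97% (16.2 to 19.9) and 8.60% (3.79 to 16.2) of these cells, and in 52.8% and 17.2% unthinned, against 1.85% (1.48 to 2.29) and 1.60% (1.27 to 1.98) of thinned oligodendrocyte-like cells. Npc2 was within 2-fold, at 1.56-fold (1.40 to 1.75). Of the other lipid genes, Lipa, the lysosomal lipase that frees cholesterol from its esters, was at 326 CPM (metastasis) and 152 CPM (naive), 2.15-fold (1.58 to 3.00), and Ch25h at 44.0 CPM (metastasis) and 7.42 CPM (naive), on 415 and 2 UMIs. Cyp27a1 was at 17.5 against 51.9 CPM and Elovl5, a fatty acid elongase, at 21.1 against 44.5 CPM, both lower in metastasis. Melanoma markers in this class summed to 1353 CPM against 96.5 CPM, and Soat1 stood at 64.2 CPM in melanoma-like cells. The part of melanoma RNA in the Soat1 ratio was not tested. Gpnmb is on both the melanoma and the macrophage list.

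In microglia-like cells (465 and 619) the synthesis sum was 505 against 383 CPM, 1.32-fold (1.15 to 1.52). The sum of the mevalonate genes differed by 1.71-fold (1.32 to 2.21), with 2 of the 4 measured having intervals above 1. Both synthesis sums lay below the free RNA sums of 1226 and 780.3 CPM, whose log2 ratio was 0.65 (0.39 to 0.91). The part of free RNA in the microglia-like sums was not tested. In metastasis 5 cells held 23.3% of the synthesis UMIs, and in naive 7.46%. Microglia-like cells had 2 of 20 genes past 2-fold higher and 1 lower (backgrounds 2.5% and 2.19%). Insig1 was at 41.8 and 19.6 CPM, 2.13-fold (1.20 to 3.83), on 33 and 22 UMIs, and Srebf2 at 17.7 and 39.2 CPM, 2.21-fold lower, on 14 and 44 UMIs. The other higher gene was Idi1, at 2.05-fold (0.811 to 5.43). Both named values turned their direction under an alternative: at least 2000 UMIs per barcode for Insig1, and no doublet removal for Srebf2. Npc2, at 889 and 702 CPM, gave 1.27-fold (1.14 to 1.40), and Soat1, at 91.2 and 62.4 CPM, 1.46-fold (1.04 to 2.06).

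The other 37 lipid genes, which share the SREBP, LXR and sterol transport pathways, gave few differences outside these small classes. In 7 units, which were astrocyte-like, oligodendrocyte-like, olfactory ensheathing-like, choroid plexus epithelium-like and neuroblast-like cells and clusters 3 and 5, 0 were past 2-fold in either direction, of 28 to 35 measured. In ependymal-like cells 1 of 35 was (background 3.6%), Stard5, at 4.86 against 2.14 CPM. Microglia-like cells had 2 of 30 higher (background over all genes 2.5%), both fatty acid genes, Fasn, the fatty acid synthase, at 25.3 against 10.7 CPM, 2.37-fold (1.10 to 5.31), and Scd1, a desaturase, at 31.7 against 15.2 CPM, 2.09-fold (1.08 to 4.12), and 1 lower (background 2.19%), Stard5, with an interval that includes 1. Cluster 21 had 3 of 27 higher (background 3.84%), the transporters Stard3 (2.60-fold (1.35 to 5.17)) and Gramd1a (2.47-fold (1.05 to 6.08)) and Acss2 (2.52-fold (1.13 to 5.91)), and 1 lower (background 2.8%), Fads1 (0.458-fold (0.211 to 0.917)). Fibroblast-like cells had 2 of 18 higher (background 8.12%), with Acly, the ATP citrate lyase that supplies cytosolic acetyl-CoA, at 3.04-fold (1.23 to 9.02) and Cyp27a1 with an interval that includes 1. Endothelial-like cells, had 7 of 31 higher and 6 lower (backgrounds 17.6% and 17.1%), and T and NK-like cells 1 of 12 lower (background 5.37%), Acsl3, at 40.6 against 114 CPM. Macrophage/monocyte-like cells had 4 of 34 higher and 2 lower (backgrounds 6.65% and 14.1%), among them Lipa, Ch25h, Cyp27a1 and Elovl5 as given above, and the other 2, Fads2 and Erlin2, had intervals that include 1.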

How the data were processed

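Single-cell RNA was measured in 2 10x libraries, 1 per group. The authors deposited raw UMI counts per gene and barcode, unfiltered as the file contents show; STARsolo and the build GRCm38 are named per the submitters' processing notes, and versions, annotation and strand setting are not given in the sources used here. The depth was 89193669 UMIs in metastasis and 69445557 in naive.

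Barcodes with at least 1000 UMIs, 500 genes and at most 20% mitochondrial UMIs were kept (13937 and 14301 passed the UMI limit). Doublets were scored per library with scrublet in scanpy 1.11.5; the automatic threshold failed in metastasis, so the threshold found in naive was used for both, which removed 645 (4.69%) and 855 (6.11%) barcodes. Both libraries were clustered together (2000 variable genes without members and other lipid genes, 30 principal components, 15 neighbours, Leiden resolution 1, no integration). A cluster was named where the median log2 fold of a marker list was at least 1, at least 3 markers were past 2-fold and no other list came within 0.5; clusters whose 10 leading genes went against the name stayed unnamed. Names were rebuilt here and may differ from the study's.

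Counts were summed per class and library and divided by the class total (CPM). Intervals are exact (Poisson for levels, conditional binomial for ratios, Clopper-Pearson for shares), at 95%, and cover counting error only. On independent counts simulated from the mural-like sums they held the true ratio for 96.1% of 7688 unchanged genes. That simulation had no spread between cells, so its result follows from the draw and is no check of the intervals on real cells. A sum of 0 was set to a floor of 3 UMIs for bounds. Pools of 3 brains count as 1 sample, so no test was made. Genes named are those past 2-fold with an interval excluding 1, the 3 highest and lowest in the main glial classes, and each member's highest and lowest class; genes named beyond these rules were chosen after their values were seen. Members and gene lists were chosen with earlier results of these data known. Alternatives changed barcode limits, doublets, clustering, naming, scaling, weighting, free RNA, the minimum of 20 UMIs and the fold. Promoters came from a RefSeq table of GRCm38.p6 by gene symbol.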

Additional observations from a re-analysis of the deposited data

How the results depend on the processing

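With 1 library per group no library could be left out. No paired analysis was possible because each group holds 1 library and no result comes from a test. On the log2 scale, the summed synthesis genes in astrocyte-like cells were 0.11 and turned to -0.056 where single cells were named by marker UMIs and to -0.10 with free RNA subtracted, and were 0.25 at 2000 UMIs per barcode. In oligodendrocyte-like cells the sum stayed above 0 in all 14 alternatives: from 0.22 it moved to 0.36 at 500 UMIs, 0.37 at 2000 UMIs, 0.36 at 10% mitochondrial UMIs, 0.36 without doublet removal, 0.36 with lipid genes in the clustering, 0.36 at resolution 0.5, 0.36 at resolution 2, 0.33 with cells named singly, 0.18 scaled to the median gene and 0.18 with free RNA subtracted. In ependymal-like cells it moved from 0.28 to 0.14 at resolution 2 and 0.062 with free RNA subtracted. In mural-like cells it moved from 1.43 to 1.18 with every cell weighted equally and 1.88 with free RNA subtracted. Members past 2-fold over the 12 named classes numbered 37, and 23 at 2000 UMIs (with 9 classes left), 69 with free RNA subtracted (34 higher and 35 lower), 24 with at least 50 UMIs, 76 at 1.5-fold and 22 with 10 CPM added. The share of all genes past the limit was not computed under these alternatives. The counts therefore describe the settings and are not a result about the members. Alternatives chosen after the data were seen gave -0.093 in astrocyte-like, 0.21 in ependymal-like and 1.71 in mural-like cells with free RNA of barcodes with 100 to 300 UMIs subtracted, 0.35 in oligodendrocyte-like cells with cluster 3 counted and 1.07 in cluster 22 alone. Of 565 alternative values of 46 named genes in classes, 524 stayed within the counting interval, 35 moved and 6 turned: Npc1 in mural-like cells to 0.17 at 500 UMIs, Dhcr7 in mural-like cells to -0.35 with equal weights, Insig1 in microglia-like cells to -0.32 at 2000 UMIs, Srebf2 in microglia-like cells to 0.15 without doublet removal, and, with free RNA subtracted, Insig1 to -0.90 and Idi1 to -0.10 in ependymal-like cells. The cause was not tested for any of these changes, apart from fewer cells or genes where a limit was raised. Mural-like cells at 2000 UMIs (17 in naive) and those without a melanoma-marker UMI (33 in metastasis) were too few for a value. Counts under 20 UMIs, most often in naive fibroblast-like, mural-like and endothelial-like cells, limit the single ratios.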
